A study of Mus musculus with 20 samples.

Results

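Oligodendrocyte precursor cells (OPCs) of the neonatal dentate gyrus (DG) were examined through their open chromatin, measured by scATAC-seq at P5. The 678 nuclei described here were selected, by measured values, from the 6785 barcodes whose counts in peaks lay above 10000 and below 100000. For each barcode the counts in peaks over Olig1, Olig2, Sox10 and Pdgfra, with 2 kb upstream of each gene, were divided by all counts in peaks. The top 10% by this share were kept and their pooled accessibility was compared with that of the bottom 50%, 3393 nuclei, which are nuclei of many kinds and not a control group. The share therefore fixes the difference at these 4 genes, and only peaks and genes away from them carry further description.

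The nuclei came from EGFP-positive cells sorted from the microdissected DG of Nestin-EGFP mice, in which a Nestin transgene drives EGFP, on a C57BL/6 background with no treatment or deletion. The sort keeps any cell that holds EGFP from the transgene, so the shares below are shares of sorted nuclei and not of the tissue. There was 1 scATAC-seq library at each of P5, 12w and 24w and 1 scRNA-seq library at P5 that was used beside them, and how many mice were pooled is not given in the sources used here. With 1 library no difference could be tested against replicates. All ratios are therefore descriptions, with exact 95% intervals that cover counting error only.

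OPCs are the dividing, migrating glial cells from which oligodendrocytes, the myelin-forming cells of the brain, arise. Olig1 and Olig2 are neighbouring basic helix-loop-helix factors that set the lineage, Sox10 is an HMG-box factor that acts with them and later turns on myelin genes, and Pdgfra is the receptor for platelet-derived growth factor A, which keeps OPCs dividing. As OPCs commit to differentiation they lose Pdgfra and pass through a stage marked by Gpr17 and Neu4 before they make Mbp and the other myelin proteins. An open regulatory element can precede the transcription of its gene, so accessibility at a myelin gene is not a measure of myelin.

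The P5 library held 256859756 counts in 143199 peaks over 509656 barcodes, and the 6785 barcodes kept carried 86.9% of the counts, with a median of 30705 each. A count here is a transposase cut, and 89.2% of the matrix values were even, because both ends of a fragment were counted. Intervals were therefore computed on fragments. The selected nuclei held 19417211 counts (10038182 fragments) with a median of 27497 per nucleus, and the bottom 50% held 110471028 counts with a median of 30284. Counts in peaks within 1 kb of a transcription start made up 58.1% of the selected nuclei's counts and 52.8% of the others'. With counts scaled to those peaks instead, 7436 peaks were higher and 30208 lower in the comparison below, in place of 8321 and 26808. Doublets were not called. Nuclei with more than 60000 counts, where doublets would gather, made up 1.92% of the selected nuclei and 5.19% of the bottom 50%. In the nuclei between these groups they made up 6.78%, at a median of 32238 counts. Depth thus differed with the selection, and these values are not read as shares of doublets. Of the P5 barcodes 88 were also among those kept at 12w and 38 among those kept at 24w.

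The share at the 4 genes had no gap at the limit. It ran from 908.2 to 2715 CPM, the counts at these genes scaled to a common total of 1000000 counts in peaks, with a median of 1082 in the selected nuclei, and from 0 to 351.9 with a median of 158.0 in the bottom 50%, of which 515 nuclei had no count at all. The last nuclei inside the limit stood at 908.6, 908.4 and 908.2 and the first outside it at 908.0, 907.7 and 907.5. The share of a selected nucleus rested on 10 to 103 counts, with a median of 30, so a nucleus at the limit is placed there by few counts.

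**Figure D1:**
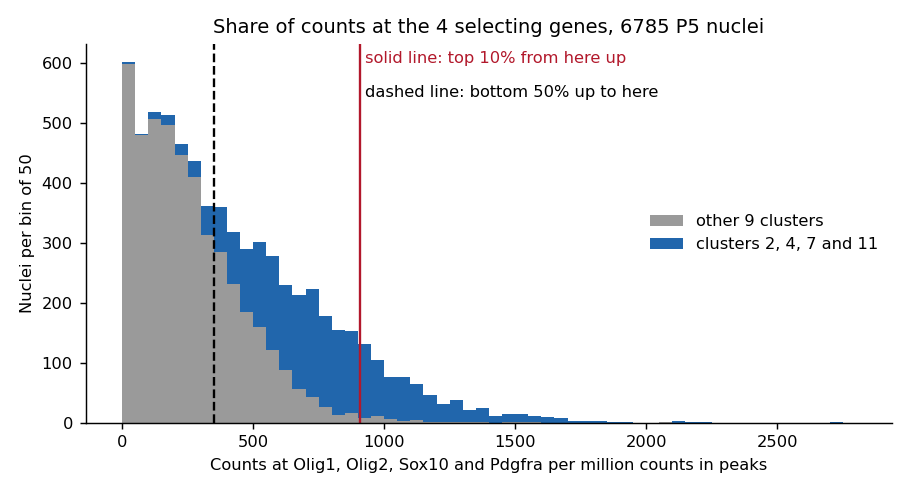
Number of P5 nuclei (y axis) by the share at Olig1, Olig2, Sox10 and Pdgfra in CPM (x axis, bins of 50), blue for nuclei of clusters 2, 4, 7 and 11 and grey for the other 9 clusters, with a solid line where the top 10% starts and a dashed line where the bottom 50% ends. The distribution falls without a gap past the limit of 908.2, and nearly all nuclei beyond it belong to the 4 clusters, which also hold most nuclei just below it.

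All 4 selecting genes contributed. Olig2 (chromosome 16, 91225457 to 91228677) stood at 380.0 CPM in the selected nuclei and 63.2 in the bottom 50%, through a single peak of 15823 bases that covers the gene. Pdgfra (chromosome 5, 75152292 to 75198215) stood at 355.7 and 62.0 over 10 peaks, Sox10 (chromosome 15, 79154908 to 79165240) at 307.8 and 20.3 over 3 peaks, and Olig1 (chromosome 16, 91269772 to 91271933) at 82.4 and 21.9 in 1 peak. These values chose the nuclei and show nothing further. In 395 of 678 selected nuclei (58.3%) each of the 4 genes had a count, against 115 of 3393 (3.39%) in the bottom 50%.

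A gene left out of the selection gave a value that the selection did not use. When nuclei were chosen by the other 3 genes, Sox10 was still 5.54-fold higher in the top 10% than in the bottom 50% (interval 5.22 to 5.90). Pdgfra was 2.96-fold higher (2.83 to 3.12), Olig2 2.63-fold (2.52 to 2.76) and Olig1 1.89-fold (1.73 to 2.09). The 4 genes thus rose in the same nuclei, Sox10 most steeply and Olig1 least, and 72.4% to 88.5% of the nuclei chosen by 3 genes were among the 678. Olig1 and Olig2 lie on the same stretch of chromosome 16, so these are not wholly separate readouts.

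The label was then read beside genes that the selection did not use, in lists chosen with earlier results of these data known. Among the surface and matrix genes of OPCs, 10 of 12 were at least 1.5-fold higher in the selected nuclei and none was lower, where 9.67% of the 16324 genes compared were higher and 9.77% were lower by this rule of size. The median log2 ratio of the list was 1.01, against 0.06 over all genes compared. By nuclei with any count, 4 of its genes were higher, a reading with a ceiling. Xylt1, Tnr, Cacng4, Bcan and Pcdh15 had a count in 94.49%, 91.22%, 82.05%, 80.4% and 69.85% of the bottom 50%. A value 1.5-fold higher would there exceed all nuclei, so these genes could not pass. Lhfpl3, a tetraspan-type membrane protein of OPCs, stood at 253.6 CPM in the selected nuclei and 61.3 in the bottom 50%, 4.14-fold higher (3.87 to 4.28). Cspg4, which encodes the NG2 proteoglycan, stood at 353.2 and 91.9, 3.84-fold higher (3.67 to 4.01). Matn4, a matrix protein, was 3.44-fold higher (3.21 to 3.68) and C1ql1, a secreted C1q-like protein, 2.97-fold (2.79 to 3.19). Cacng4, Pcdh15, Tnr, Xylt1, Bcan and Vcan followed at 2.36-, 2.06-, 1.99-, 1.78-, 1.65- and 1.54-fold. The remaining members were Megf11 at 1.26-fold and Ptprz1, a receptor phosphatase shared by OPCs and neural stem cells (NSCs), at 1.04-fold (0.983 to 1.13). Nearly the whole list was thus raised. The windows of Cspg4 and Matn4 share peaks with Odf3l1 and with Slpi and Rbpjl.

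Cspg4 is also a pericyte gene and Pdgfra a fibroblast gene, so markers of both were read in the same nuclei. Pdgfrb, the defining receptor of mural cells, stood at 33.8 CPM in the selected nuclei and 95.2 in the bottom 50%, 0.355-fold (0.324 to 0.404). Of 8 mural genes 3 were lower (Pdgfrb, Rgs5 and Higd1b) and none was higher, with a summed level of 164.9 against 248.3 CPM. Over all genes compared, 9.77% were lower and 9.67% higher. Of the 4 fibroblast genes compared only Dcn was at least 1.5-fold lower, at 0.218-fold (0.0884 to 0.416), while Col1a1, Col1a2 and Tbx18 stood at 0.977-, 0.978- and 0.754-fold. The mural gene with the highest ratio was Acta2, at 1.43-fold (1.18 to 1.70). No mural or fibroblast gene passed 1.5-fold in the direction of Cspg4 and Pdgfra. These ratios also depend on the make-up of the bottom 50%. Of the clusters described below, cluster 8 stood highest at mural genes. The bottom 50% held 262 of its 277 nuclei and the selected nuclei held 0.

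Among the transcription factors of the lineage, 6 of 13 were higher and none was lower, against 9.67% and 9.77% of all genes compared. The median log2 ratio was 0.45. Against all nuclei outside the top 10%, and by nuclei with any count, 3 were higher. Sox6 had a count in 92.57% of the bottom 50% and so could not pass 1.5-fold by nuclei. Zfp488, an oligodendrocyte zinc finger factor that works with Olig2, stood at 87.8 and 12.9 CPM, 6.80-fold higher (6.12 to 7.47). Nkx2-2, a homeodomain factor that promotes differentiation, stood at 267.1 and 79.2, 3.37-fold higher (3.22 to 3.55). Myrf, the membrane-bound factor that starts myelin gene transcription, was 2.31-fold higher (1.98 to 2.56), Prrx1 1.81-fold and Sox6 1.60-fold. The 7 factors not called lay between 0.949-fold at Tcf7l2 and 1.37-fold at Etv4, with Sox8, a relative of Sox10, at 0.994-fold (0.944 to 1.07).

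Genes of the committed stage were raised as well. Of 11 genes 7 were higher and none was lower, against 9.67% and 9.77% of all genes compared, with a median log2 ratio of 0.80. With Gpr17 and Lims2, which share a peak, counted as 1 gene, 6 of 10 were higher and the median was 0.70. In promoter windows 4 genes of the list were higher. Gpr17, an orphan receptor that marks committed precursors, stood at 151.9 CPM in the selected nuclei and 17.5 in the bottom 50%, 8.70-fold higher (8.05 to 9.49). Lims2, an adaptor of integrin adhesions whose window of 4 peaks takes in the peak of Gpr17, was 9.08-fold higher (8.46 to 9.59). Neu4, a sialidase, was 4.59-fold higher (3.79 to 5.01) and Bcas1 2.56-fold (2.40 to 2.73). Enpp6, Mpzl1 and Itpr2 followed at 2.00-, 1.74- and 1.53-fold, and Bmp4, Rras2, Tns3 and Fyn stood at 1.49-, 1.42-, 1.37- and 1.24-fold.

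Myelin genes were mixed. Of 14 listed, 12 could be compared, 5 were higher and 2 were lower, with a median log2 ratio of 0.55. Over all genes compared, 9.67% were higher and 9.77% lower. Ugt8a, the enzyme of galactolipid synthesis, was 5.28-fold higher (4.95 to 5.92), Mbp 2.38-fold (2.23 to 2.46) and Cldn11 2.09-fold (1.82 to 2.44). Opalin, at 8.45 CPM in the selected nuclei, and Cnp were the other 2. Trf and Mobp were lower, at 0.650-fold (0.556 to 0.727) and 0.595-fold (0.449 to 0.880). Of 14 alternatives, 6 left 0 myelin genes lower and 4 again gave 2. Mag, Ermn and Mal stood at 0.899-, 1.11- and 1.47-fold. Late myelin genes held few counts, 3.399 CPM at Mobp and 2.83 CPM at Mag in the selected nuclei, and the window of Mog held 0 counts in the selected nuclei and 2 in the bottom 50%, so Mog was not detectable at this depth. Of the receptors, Erbb3 and Erbb4, which bind neuregulins, were 2.69- and 2.12-fold higher, Lpar1 and Met were 0.481- and 0.619-fold, and Igf1r, Gpr37 and Fgfr1 lay between 0.919- and 1.17-fold. The annotated window of Fgfr2 holds 332 peaks and takes in those of Tacc2, Plekha1, Htra1 and other genes, so its 0.834-fold is not a value of Fgfr2 alone. The pattern was one of raised precursor and early commitment genes beside myelin genes that were open unevenly.

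Markers of the other cells that the sort could hold were mostly lower or within 1.5-fold. By the same rule 9.67% of all genes compared were higher and 9.77% lower, so a single call in a short list is near those shares. In the granule neuron lineage 8 of 13 genes were lower and none was higher, with a median log2 ratio of -0.85, and 5 were lower by nuclei with any count. Neurod6 stood at 3.25 CPM in the selected nuclei and 14.4 in the bottom 50%, 0.225-fold (0.164 to 0.332). Neurod2 was 0.356-fold (0.287 to 0.440), Eomes, which marks intermediate progenitors, 0.410-fold (0.357 to 0.474) and Neurod1 0.447-fold, while Prox1, Sox11 and Dcx stood at 0.978-, 1.06- and 1.24-fold. Of 9 GABAergic genes 3 were lower, Dlx1 and Sp8 among them, and none passed 1.5-fold the other way, where Gad1 stood at 1.46-fold (1.36 to 1.545), Dlx6 at 1.26-fold (1.085 to 1.43), Dlx5 at 1.14-fold and Dlx2 at 1.12-fold. Of 9 astrocyte genes Aqp4, at 0.495-fold (0.416 to 0.597), and Gja1, at 0.448-fold (0.362 to 0.532), were lower, and S100b, which cells of the oligodendrocyte lineage also make, was 3.53-fold higher (3.08 to 3.91) in a window that shares peaks with Dip2a. Of 9 radial glia genes Hopx and Notch2 were lower, at 0.596- and 0.649-fold, while Nes, Sox2, Sox9 and Hes5 stood at 1.04-, 1.03-, 0.969- and 1.14-fold. Every nucleus came from an EGFP-positive cell of a Nestin reporter mouse. None of 8 cycling genes passed 1.5-fold, and all 8 lay between 1.02- and 1.37-fold.

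The small lists of non-neural cells gave few values, to be read beside the 9.67% of all genes compared that were higher and the 9.77% lower. Of 5 endothelial genes 3 were lower, and Tek was 1.53-fold higher (1.12 to 2.30) at 3.55 CPM, a call that ended in 10 of 14 alternatives. Of 7 microglia genes 3 could be compared, and P2ry12 was 4.09-fold higher (2.97 to 4.71) through peaks that it shares with Med12l, while Csf1r was 0.488-fold and the window of Cx3cr1, shared with 5 genes, 0.704-fold. C1qb, Aif1 and Trem2 had no peak, and C1qa held 35 counts in the selected nuclei. None of the 3 ependymal genes compared passed 1.5-fold.

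**Figure D2:**
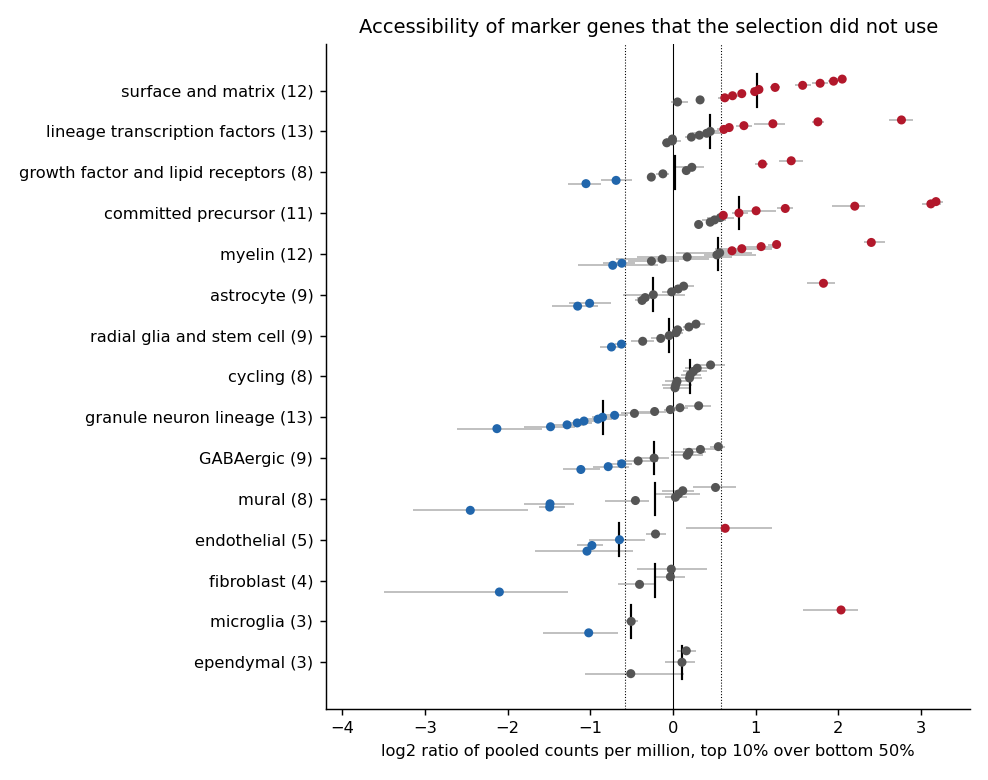
log2 ratio of pooled CPM, top 10% over bottom 50% (x axis), for each compared gene of 15 marker lists (y axis, number of genes in brackets); points are genes in red where at least 1.5-fold higher, blue where at least 1.5-fold lower and grey otherwise, grey lines are 95% counting intervals, black bars are list medians and dotted lines mark 1.5-fold. The surface and matrix, committed precursor and lineage factor lists lie mostly to the right of 0, with medians of 1.01, 0.80 and 0.45, and the granule neuron list to the left, with a median of -0.85.

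The same genes were read as nuclei with at least 1 count. Gpr17 had a count in 546 of 678 selected nuclei (80.5%, exact interval 77.4 to 83.5) and in 623 of 3393 nuclei of the bottom 50% (18.4%, 17.1 to 19.7). After every nucleus was thinned to 5000 fragments, which left no nucleus out, these shares were 49.9% and 7.45%. Zfp488 had a count in 63.3% and 16.1%, and 32.7% and 5.995% after thinning. Lims2 stood at 68.9% and 11.8% after thinning, Cspg4 at 79.3% and 31.5%, Lhfpl3 at 70.1% and 25.9% and Nkx2-2 at 71.3% and 29.2%. Neurod6 had a count in 4.72% of the selected nuclei and 19.7% of the others, and 1.39% and 7.20% after thinning. Other genes of other lineages had a count in more of the selected nuclei, with 22.1% at Eomes, 33.3% at Neurod1, 31.7% at Pdgfrb, 41.6% at Tbr1, 73.8% at Gad1 and 82.5% at Cx3cr1, whose window is shared with other genes. In the bottom 50% these shares were 48.2%, 56.5%, 63.7%, 59.5%, 66.4% and 92.1%. The median depths were 27497 and 30284 counts. A share of nuclei with a count thus ranged widely among genes of other lineages and is not read here as use of the gene.

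Among windows that do not overlap one already named, the 10 genes with the highest ratio were led by windows with few peaks. Slc36a3, an amino acid transporter of the solute carrier family, stood at 24.7 CPM in the selected nuclei and 1.34 in the bottom 50%, 18.4-fold higher (13.8 to 23.4), through 1 peak. Spata19 followed at 11.7-fold (9.57 to 14.6), then Lims2, whose window holds the peak of Gpr17 at 8.70-fold, the chemokine gene Ccl5 at 8.16-fold (6.35 to 10.1) and Oas1h at 7.88-fold (5.90 to 8.87). Mroh3, Slc7a3, Zfp488, Macc1 and 1700034J05Rik stood between 6.31- and 6.83-fold. An open peak inside a gene window does not show that the gene is the one it acts on. At the other end, 0 counts were met in the selected nuclei at Slc22a13, G6pc2 and Trpc5os. With 3 fragments as the floor for the group, they were at least 20.6-, 12.9- and 10.9-fold lower than in the bottom 50%. The exact two-sided intervals are wider than this floor and reach 0.0600-, 0.0959- and 0.114-fold. Gm12695, with 15 counts, stood at 0.0340-fold (0.0206 to 0.0793), and Slamf6, Ambp, Ckmt2, 1700012B07Rik, Gm11634 and Tigit held 1 to 3 counts each in the selected nuclei against 3.29 to 5.64 CPM in the bottom 50%.

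Across the genome, away from the 4 genes, the selected nuclei differed from the bottom 50% at many peaks. After 103 peaks within 100 kb of the 4 genes were left out, 77502 peaks had enough counts in both groups together to expect at least 40 in the selected nuclei. Of these 8321 (10.7%) were at least 2-fold higher and 26808 (34.6%) at least 2-fold lower, with a median log2 ratio of -0.20. The higher peaks held 15.5% of the selected nuclei's counts and 4.78% of the others', and the lower peaks 4.65% and 20.3%. Lower peaks outnumbered higher ones in a pool of 678 nuclei set against 3393 nuclei of several kinds. The minimum on summed counts admits a peak open only in the larger pool at a lower CPM than one open only in the selected nuclei. The part of this minimum in the excess of lower peaks was not tested, and the excess is not read as a property of the nuclei. Of 19680 peaks within 1 kb of a transcription start 6.85% were higher and 11.3% lower, whereas 13.3% of intronic peaks were higher and 42.9% lower and 10.5% of intergenic peaks were higher and 44.4% lower. Peaks within 1 kb of a start made up 16.2% of the higher and 8.29% of the lower peaks, against 25.4% of all peaks compared.

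The peaks with the highest ratio lay between genes or in introns, except that nearest Smgc, which lay in an exon. To show such elements, the 300 bases around the centre of 4 of them are given here from the GRCm38 reference, plus strand, 5′ to 3′, with the Sox words ACAATG and ACAAAG and the E-box words CAGCTG and CAGATG in capitals on either strand.
Otx2 distal peak, chr14:48572307-48572606: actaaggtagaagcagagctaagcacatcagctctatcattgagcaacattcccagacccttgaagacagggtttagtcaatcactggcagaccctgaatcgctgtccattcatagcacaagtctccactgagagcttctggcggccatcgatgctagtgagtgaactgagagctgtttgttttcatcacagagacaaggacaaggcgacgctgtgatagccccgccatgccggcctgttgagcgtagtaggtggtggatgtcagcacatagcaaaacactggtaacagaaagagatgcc
Rap2b upstream peak, chr3:61235116-61235415: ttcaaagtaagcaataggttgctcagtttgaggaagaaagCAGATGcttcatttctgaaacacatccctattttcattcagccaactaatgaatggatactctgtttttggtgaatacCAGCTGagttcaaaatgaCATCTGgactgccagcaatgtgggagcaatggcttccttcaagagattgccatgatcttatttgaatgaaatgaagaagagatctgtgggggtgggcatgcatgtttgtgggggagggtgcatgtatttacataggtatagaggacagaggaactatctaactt
Dpy19l1 intron peak, chr9:24461601-24461900: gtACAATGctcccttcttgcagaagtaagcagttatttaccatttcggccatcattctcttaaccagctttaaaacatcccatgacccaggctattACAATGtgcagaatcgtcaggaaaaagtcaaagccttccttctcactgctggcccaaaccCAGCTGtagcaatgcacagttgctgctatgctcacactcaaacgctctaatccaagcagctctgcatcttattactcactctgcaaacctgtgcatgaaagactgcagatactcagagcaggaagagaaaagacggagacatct
Sptlc2 intron peak, chr12:87365637-87365936: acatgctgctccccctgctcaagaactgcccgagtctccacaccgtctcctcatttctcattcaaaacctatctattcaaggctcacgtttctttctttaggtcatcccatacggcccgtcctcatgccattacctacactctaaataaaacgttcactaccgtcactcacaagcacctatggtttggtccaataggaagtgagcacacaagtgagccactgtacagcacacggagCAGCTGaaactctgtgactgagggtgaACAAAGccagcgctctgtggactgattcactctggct
The first lies 101363 bases past the start of Otx2, the nearest gene, in a peak at 48572142 to 48572770 on chromosome 14 that stood at 13.2 CPM in the selected nuclei and 0.525 in the bottom 50%, 25.1-fold higher (18.02 to 41.9). None of the 4 words occurs in it. The peak at -126373 bases from the start of Rap2b (negative distances are upstream) was 24.5-fold higher (16.6 to 33.3) and holds 1 CAGCTG and 2 CAGATG. The peak in an intron of Dpy19l1 stood at 24.6 and 1.01 CPM, 24.3-fold higher (18.3 to 33.2), and holds 2 ACAATG and 1 CAGCTG. The peak in an intron of Sptlc2 was 23.8-fold higher (16.7 to 32.6) and holds 1 ACAAAG and 1 CAGCTG. Of the next 6 peaks by ratio, the one nearest Gm5148 had the most counts, 944 in the selected nuclei, and was 22.8-fold higher (18.1 to 27.2). The others lay in an intron of Evc2 and nearest Khdrbs3, Nova1, Mmp16 and Smgc, at 22.6- to 23.8-fold. The nearest gene is given for position only.

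The 5 peaks with the lowest ratio held 0 counts in the selected nuclei. The lowest, in an intron of Nckap5 at 126011374 to 126012514 on chromosome 1, held 1485 counts in the bottom 50% and was at least 44.8-fold lower with 3 fragments as the floor, with an exact interval that reaches 0.0275-fold. Its central 300 bases, given as the counterpart to the higher peaks and marked in the same way, hold 1 ACAAAG and 1 CAGCTG, the same words as the peak in Sptlc2.
Nckap5 intron peak, chr1:126011795-126012094: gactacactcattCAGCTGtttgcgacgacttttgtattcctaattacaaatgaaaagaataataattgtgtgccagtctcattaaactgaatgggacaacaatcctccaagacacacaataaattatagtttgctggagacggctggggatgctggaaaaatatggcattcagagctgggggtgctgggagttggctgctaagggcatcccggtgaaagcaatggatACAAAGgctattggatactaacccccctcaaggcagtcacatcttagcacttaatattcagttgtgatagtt
The others, nearest Gsk3b, Ccdc3, Hs1bp3 and Eny2, were at least 40.5-, 29.7-, 27.7- and 26.7-fold lower by the same floor, with intervals that reach 0.0304- to 0.0463-fold.

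Over all peaks the words differed modestly between the sets. ACAAAG occurred in 31.0% of the higher peaks (Wilson interval 30.0 to 32.0), 25.9% of the lower peaks and 24.3% of all peaks compared. ACAATG occurred in 17.3%, 16.5% and 14.1%, and CAGCTG in 27.9%, 25.1% and 22.7%. CAGATG, another E-box of neural helix-loop-helix factors, occurred in 25.3% of the higher peaks, 33.7% of the lower peaks and 25.6% of all. The homeodomain word TAATTA occurred in 7.30%, 13.9% and 8.98%. The RFX motif was rare, in 19 of 8321 higher peaks (0.228%), 17 of 26808 lower peaks (0.0634%) and 0.115% of all, and the NFI motif rarer, in 0.108%, 0.0671% and 0.0800%. CATATG stood at 4.54%, 5.87% and 4.44%, the AP-1 word TGANTCA at 9.13%, 10.0% and 8.22%, the TEAD word GGAATG at 17.6%, 17.1% and 15.9% and the TCF7L2 word ATCAAAG, which shares letters with ACAAAG, at 5.31%, 5.01% and 4.28%. As a ratio to the share in all peaks compared, the higher peaks stood at 1.99 for RFX and 1.35 for NFI, on 19 and 9 peaks, at 1.27 for ACAAAG, 1.24 for ATCAAAG and 1.23 for both ACAATG and CAGCTG, and at 0.812 for TAATTA. The lower peaks stood at 1.55 for TAATTA, 1.32 for CATATG, 1.31 for CAGATG, 1.22 for the AP-1 word, 1.17 for both ACAATG and ATCAAAG, 1.07 for ACAAAG and 0.552 for RFX. In peaks over 1 kb from a start, an alternative chosen after seeing the data, the lower peaks stood at 1.04 for ACAATG and 0.970 for ACAAAG and the higher peaks at 1.155 and 1.21. The median GC content of the windows was 48.7% in the higher and the lower peaks and 50.3% in all. A word in these letters is a description and not a bound site.

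Peaks around the selecting genes, outside the windows that chose the nuclei, were raised in groups. Within 100 kb of each gene, 16 of 36 peaks around Olig1, 15 of 33 around Olig2, 18 of 33 around Sox10 and 11 of 16 around Pdgfra had enough counts to be compared. Of these 8, 8, 7 and 8 were at least 2-fold higher and 2, 2, 0 and 0 at least 2-fold lower. The sets of Olig1 and Olig2 overlap. Of the 77502 peaks compared away from the selecting genes, 10.7% were at least 2-fold higher and 34.6% at least 2-fold lower. The peaks around the selecting genes belong to the same loci as the rule and are given as a description. Around Sox10, an intronic peak at -47.8 kb, nearest Pick1, stood at 48.5 CPM and 3.36, 14.4-fold higher (12.1 to 17.0). The peaks at -37.1 kb and -10.985 kb were 12.9-fold (11.4 to 14.2) and 9.26-fold (7.17 to 10.97) higher. Between the Olig genes, 21.2 kb downstream of the start of Olig2, a peak of 933 bases stood at 17.3 and 1.60 CPM, 10.8-fold higher (7.92 to 13.3). A peak 33.7 kb past the start of Olig1 was 6.28-fold higher (5.94 to 6.70) at 228.3 CPM, and the peaks at -84.967 and -22.3 kb of Olig2 were lower, at 0.348-fold (0.289 to 0.431) and 0.266-fold (0.162 to 0.513). Around Pdgfra, the peak 71.4 kb downstream of the start was 14.1-fold higher (11.3 to 16.9) and the peak at -88.9 kb, nearest Gsx2, 11.7-fold (8.05 to 16.2). The centres of 2 of these peaks, at Olig2 and Sox10, marked as above, were the following, and they do not stand for the other peaks.
Olig2 downstream peak, chr16:91246462-91246761: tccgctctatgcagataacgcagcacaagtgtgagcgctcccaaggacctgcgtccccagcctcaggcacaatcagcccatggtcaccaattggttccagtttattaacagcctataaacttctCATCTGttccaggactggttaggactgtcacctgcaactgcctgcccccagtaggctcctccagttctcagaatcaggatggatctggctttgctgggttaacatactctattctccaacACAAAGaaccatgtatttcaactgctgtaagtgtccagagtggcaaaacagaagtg
Sox10 upstream peak, chr15:79212913-79213212: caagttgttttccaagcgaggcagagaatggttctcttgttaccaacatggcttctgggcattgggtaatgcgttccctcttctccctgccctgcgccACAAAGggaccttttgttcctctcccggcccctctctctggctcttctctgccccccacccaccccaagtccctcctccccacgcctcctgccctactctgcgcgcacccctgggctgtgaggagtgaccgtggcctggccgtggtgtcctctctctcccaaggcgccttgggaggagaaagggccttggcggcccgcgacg
These 2 peaks each hold 1 ACAAAG, and the Olig2 peak also holds 1 CAGATG. The centre of the Pdgfra peak at 71.4 kb, which is not printed here, holds none of the marked words.

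**Figure D3:**
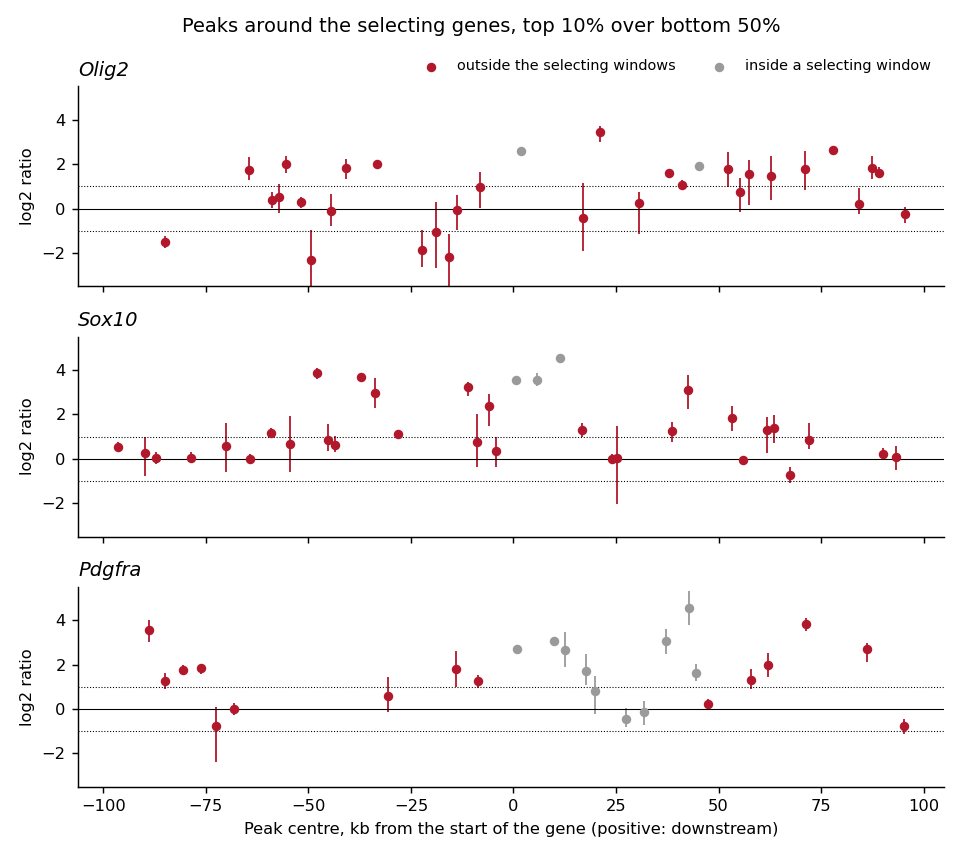
log2 ratio of pooled CPM, top 10% over bottom 50% (y axis), of peaks with at least 20 fragments by the distance of their centre from the start of Olig2, Sox10 and Pdgfra in kb (x axis), red outside and grey inside the windows that chose the nuclei; vertical lines are 95% counting intervals and dotted lines mark 2-fold. The highest point outside the windows stands 14.4-fold higher at -47.8 kb of Sox10, and all points at least 2-fold lower belong to Olig2, at -15.7 kb and further upstream.

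The nuclei of P5 were also clustered on their peaks, with every peak within 100 kb of the 4 genes left out. Of 13 clusters, 4 (numbers 2, 4, 7 and 11) held 242, 282, 67 and 44 of the selected nuclei, 635 of 678 (93.7%). These clusters held 2258 nuclei, 33.3% of all, so that 20% to 36.3% of each was selected and no cluster was mostly selected nuclei. Of the bottom 50%, 127 nuclei (3.74%) lay in them. A further 43 selected nuclei lay in other clusters, at a median of 17530 counts against 27930 for the 635, and their Gpr17 stood at 34.5 CPM against 158.1. In those 43 nuclei Zfp488 stood at 32.5 against 90.7 and Aqp4 at 43.7 against 11.3. The committed list summed to 1397 against 1966 and the astrocyte list to 1012 against 618.1. The levels of the 4 selecting genes in these nuclei are tied together by the limit on their sum and are not compared.

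Selected and unselected nuclei of the same 4 clusters were then compared, an alternative added after the data were seen. Of 63096 peaks away from the 4 genes, 5 were at least 2-fold higher in the 635 selected nuclei and 567 at least 2-fold lower than in the 1623 unselected nuclei, against 8321 and 26808 when set against the bottom 50%. None of the genes of the surface and matrix, lineage factor, committed, myelin or granule neuron lists passed 1.5-fold in either direction. Gpr17 stood at 158.1 and 133.7 CPM, Zfp488 at 90.7 and 83.8, Cspg4 at 361.2 and 301.7 and Lhfpl3 at 259.4 and 231.7. Bmp4, at 40.3 and 45.4, and Enpp6, at 19.5 and 21.4, stood lower in the selected nuclei. The mural gene list gave the single exception among all lists, with 1 of 8 genes higher. The selected nuclei thus differed little, away from the 4 genes, from the other nuclei of the clusters that held them.

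Among the selected nuclei of the 4 clusters, those of cluster 11 stood highest at Gpr17, at 186.0 CPM against 121.6 to 175.5 in the other 3, at Bmp4, 81.0 against 27.0 to 70.5, at Enpp6, 35.3 against 17.1 to 23.5, and at Bcas1, 167.6 against 129.2 to 135.5. They stood lowest at Itpr2, at 283.8 against 318.3 to 354.0, and below cluster 4 at Neu4, 40.1 against 44.8, and at Ugt8a, 97.0 against 104.6. Their Mbp stood at 265.4 against 214.6 to 237.0. The astrocyte list summed to 435.3 CPM in cluster 11 and 605.0 to 663.0 in the others, and the radial glia list to 850.6 and 1078 to 1099. Clusters 2 and 4 stood highest at Cspg4, with 352.0 and 394.0. The clusters were made from these peaks, and cluster 11 rests on 44 nuclei and 1247315 counts, so these are descriptions of how the nuclei were grouped.

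When all 6785 nuclei were divided into deciles by the share, genes of the precursor and committed lists rose with it and those of several other lists did not. Gpr17 stood between 10.9 and 18.5 CPM in the lowest 4 deciles, at 28.7 in the fifth, at 68.6 in the seventh, at 131.3 in the ninth and at 151.9 in the top decile. Zfp488 rose from 8.75 in the lowest decile to 86.7 in the ninth and 87.8 in the top decile, so it differed little between the last 2 deciles. The surface and matrix list summed to 1564 CPM in the lowest decile, 3144 in the ninth and 3398 in the top decile. Neurod2 stood at 24.3 in the lowest decile, reached 29.6 in the third and fell to 9.53 in the top decile. Cspg4 started at 129.1, fell to 75.2 in the third decile and then rose to 353.2. The receptor and radial glia lists summed to 2827 and 1213 CPM in the lowest decile and 2652 and 1090 in the top decile. The window of Fgfr2, which takes in other genes, gave 1811 of the 2652 CPM, so the receptor sum is not a level of the receptor genes. In the lowest decile the mural list summed to 377.5 CPM, against 164.9 in the selected nuclei, and the part of mural nuclei in the first Cspg4 level was not tested. The share of nuclei in the 4 clusters rose from 0.442% to 10.0% in the fifth decile, 66.1% in the eighth, 86.6% in the ninth and 93.7% in the top decile.

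**Figure D4:**
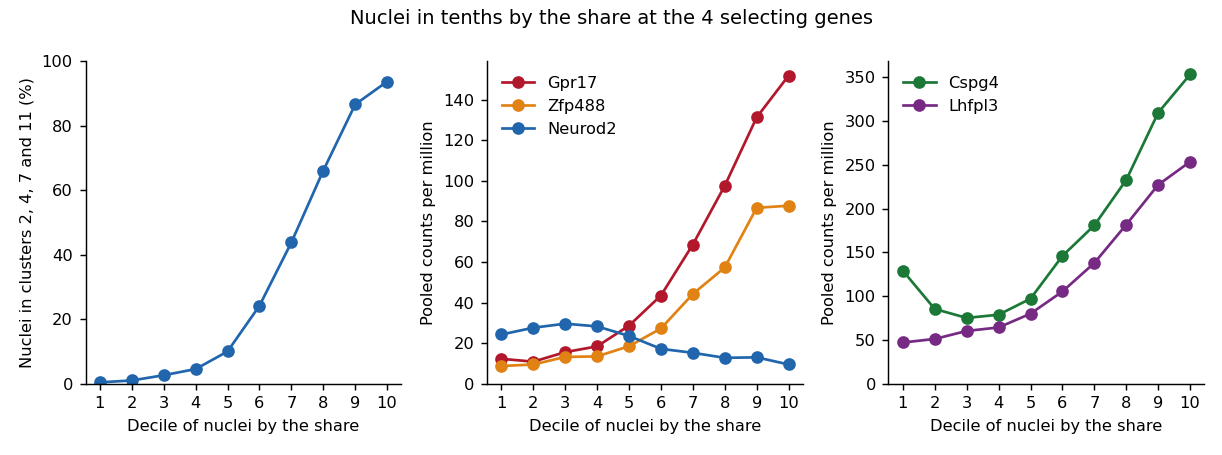
Nuclei of P5 in deciles by the share at the 4 selecting genes (x axis, the last being the selected nuclei), with the percent of nuclei in clusters 2, 4, 7 and 11 (left panel) and pooled CPM of genes that the share did not use (middle and right panels). Gpr17, Zfp488, Cspg4 and Lhfpl3 rise from about the fifth decile on, and Neurod2 falls.

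The P5 RNA library gave gene lists made without any accessibility value. Of 13684 cells that passed 1000 UMIs, 500 genes and a limit of 10% mitochondrial UMIs, 7728 held UMIs of at least 2 of Olig1, Olig2, Sox10 and Pdgfra (median 4573.5 UMIs) and 1507 held none (median 3640). The first group is wide, at 56.5% of the cells, and free RNA was not removed, so it is not a class of OPCs. A gene was listed only with at least 200 UMIs in the group where its RNA was higher, with no minimum in the other group. Among the 100 genes with the highest ratio of pooled RNA between these groups, without the 4 genes, 95 could be compared in the nuclei. Of these 83 (87.4%) were at least 1.5-fold higher in the selected nuclei and 0 were lower, against 9.67% and 9.77% of all genes compared, and the median log2 ratio was 1.27. Of the 100 genes with the lowest RNA ratio 94 could be compared, 43 (45.7%) were lower and 4 were higher, with a median log2 ratio of -0.48. The cells and the nuclei came from separate libraries of the same age, and the same 4 genes chose both groups.

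Gpr17 was among the highest in both, with a log2 ratio of 3.57 in RNA (113.2 and 9.34 CPM) and 3.12 in accessibility. Matn4, Ugt8a and Lhfpl3 stood at 3.42, 3.33 and 2.98 in RNA and 1.78, 2.40 and 2.05 in accessibility. Bmp4 had a log2 ratio of 2.75 in RNA and 0.57 in accessibility and Mag 3.23 and -0.13, and neither passed 1.5-fold in the nuclei. Sox8 had 132.9 and 45.9 CPM, a log2 ratio of 1.53, with an accessibility ratio of -0.01, and Ptprz1 1.18 with 0.06. The genes with lower RNA that were also less open included Eomes, Neurod1, Neurod2, Neurod6, Neurog2, Tbr1, Igfbpl1 and Tubb3 of the neuronal lineage and Rgs5 and Higd1b of mural cells, and the 4 that went the other way were Rgs4, Tfpi, Mgp and Lurap1l. Calb2 and Bhlhe22 of the granule neuron list also had lower RNA but stood within 1.5-fold in the nuclei. So did Kcnj8, Vtn, Abcc9 and Acta2 of the mural list.

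**Figure D5:**
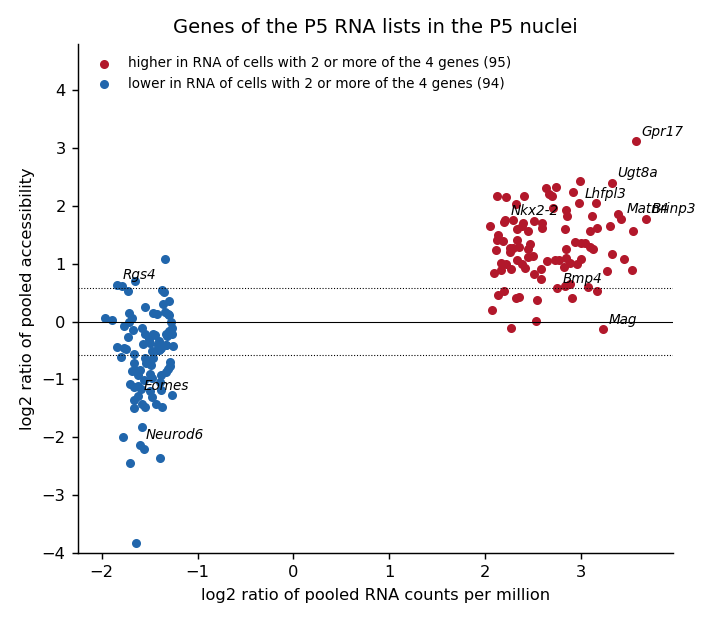
log2 ratio of pooled accessibility in the selected nuclei over the bottom 50% (y axis) by log2 ratio of pooled RNA CPM in P5 cells with UMIs of at least 2 of the 4 genes over cells with none (x axis), for the 95 genes of the higher (red) and 94 of the lower (blue) RNA list; dotted lines mark 1.5-fold. Of the red genes 83 lie above the upper dotted line and none below the lower one, and of the blue genes 43 lie below the lower one.

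At 12w and 24w few nuclei reached the P5 limit. Of 10029 nuclei in the same depth window at 12w, 6 (0.0598%, exact interval 0.0220 to 0.130) had a share of at least 908.2 CPM, and of 4545 at 24w, 2 (0.0440%, 0.00533 to 0.159), against the 10% set at P5. The peaks were called in each library alone, and the windows of the 4 genes held 15 peaks in the P5 library, 14 in the 12w library and 10 in the 24w library, which means that the limit is not the same measure in each. With 1 library per age, age and library cannot be told apart. The 6 nuclei at 12w held 106612 counts. Inside that library, against the 5282 nuclei with no count at the 4 genes, Gpr17 was 91.8-fold higher (28.6 to 497), Neu4 52.8-fold (13.7 to 137), Nkx2-2 7.86-fold (3.85 to 14.9), Lhfpl3 7.04-fold (2.79 to 14.4) and Tnr 4.10-fold (2.93 to 5.599), while Pdgfrb stood at 0.267-fold (0.115 to 0.523) and Cspg4, which pericytes share, at 0.81-fold (0.469 to 1.29). The 2 nuclei at 24w held 30536 counts. Against the 2688 nuclei there with no count at the 4 genes, Zfp488, Ugt8a, Lhfpl3 and Nkx2-2 were 196.5-fold (32.2 to 500.1), 328.9-fold (58.9 to 992), 29.2-fold (9.51 to 69.2) and 11.6-fold (2.25 to 32.1) higher. These ratios rest on 3 to 76 counts each at 12w and 6 to 9 at 24w. The raised genes named here fell below the minimum expected count used at P5, so their ratios are not calls. With that minimum, 1 surface and matrix gene was compared at 12w, with a log2 ratio of -0.26, and 0 were higher. Of 1 lineage factor compared there 0 were higher, and of 2 committed genes 1 was higher. At 24w 0 genes of these lists could be compared. Several other markers of the lineage had no counts in the 2 nuclei at 24w or had intervals that reached below 1-fold. Gpr17, Neu4, S100b and Cspg4 held 0 counts there, where the exact interval of Cspg4 reaches 0.535-fold, and Tnr stood at 0.444-fold (0.0106 to 2.33). The intervals of Lims2, C1ql1, Matn4 and Pcdh15 at 24w, and of C1ql1 and S100b at 12w, reached from below 1-fold to above it.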

How the data were processed

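The authors made the scATAC-seq matrices with Cell Ranger ATAC (software version 1.2.0 in the matrix header, mm10 reference) and the scRNA-seq matrix with Cell Ranger 2.2.0, per the labels. The deposited values are raw counts, of transposase cuts per barcode and peak or of UMIs per cell and gene, with peaks called in each library alone and scATAC-seq barcodes not filtered. The nuclei, gene lists and comparisons were chosen with earlier results of these data known.

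Barcodes above 10000 and below 100000 counts in peaks were kept, and doublets were not called. Counts were pooled over nuclei and divided by the pool's total. Gene windows were gene bodies with 2 kb upstream in the GENCODE vM21 annotation of GRCm38, and a peak in several windows counted in each. Genes and peaks with an expected count of at least 40 were compared, a log2 ratio used a prior of 1 count, and a call needed 1.5-fold for genes or 2-fold for peaks and 20 fragments in the higher group. Exact conditional binomial intervals (95%) were computed on fragments, a fragment being 2 cuts rounded up. Clusters came from a term-frequency transform of open peaks, singular value decomposition and Leiden clustering. Words were searched on both strands in 300 bases at each peak's centre in the GRCm38 RefSeq genome.

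Named genes were the 4 selecting genes, the members of the lists, and the 10 genes at either end among those with at least 200 counts in the group where they were higher and a window that overlaps no gene window already named. Named peaks were the 10 highest and 5 lowest by the same minimum, 1 per nearest gene, and the highest within 100 kb of the selecting genes. Alternatives changed the reference nuclei, the size of the selected set, depth window, selecting genes, scaling, minimum count, fold, distance, gene window, list length and word window. The comparison was tested on simulated data with known changes. Python 3.11.15, numpy 2.4.6, scipy 1.17.1, pandas 2.3.3, scikit-learn 1.9.0, leidenalg 0.10.2, igraph 0.11.9 and matplotlib 3.10.9 were used. Some members of the lists are counted but not reported here by name.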

Additional observations from a re-analysis of the deposited data

How the results depend on the processing

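Of 551 alternative values computed, 357 stayed within 1.5 times the count reported or within the counting interval of the value, 194 moved further. Direction was followed gene by gene for 16 genes, of which 0 turned, without the comparison inside the clusters. These genes had large ratios as reported, with Mbp at 2.38-fold and Aqp4 at 0.495-fold nearest to 1, so a turn was unlikely. Genes near the call limit, such as Tek and Vcan, were not followed. Word ratios near 1 did cross it, CAGATG in the higher peaks from 0.989 to 1.01 in windows of 400 bases and CATATG from 1.02 to 0.995 in windows of 200 bases and 0.931 over 1 kb from a start. The 8321 higher peaks became 5255 against all nuclei outside the top 10%, 4022 with the top 5%, 14319 with the top 20%, 3374 by nuclei with any count, 14011 at 1.5-fold, 4279 at 3-fold, 3875 with a minimum of 100 expected counts and 16274 with none. The 26808 lower peaks became 14936 with the top 5%, 15665 by nuclei with any count, 11613 with the minimum of 100 and 51661 with none. The numbers compared change with the minimum, the size of the set and the use of nuclei in place of counts. As shares of the peaks compared, 10.7% were higher and 34.6% lower as reported. These shares were 8.41% and 31.2% with the top 5%, and 6.46% and 30.0% by nuclei with any count. They were 9.13% and 27.4% with the minimum of 100, and 11.4% and 36.3% with none. Scaled to peaks near transcription starts, the median log2 ratio of all peaks moved from -0.20 to -0.35. Against unselected nuclei of clusters 2, 4, 7 and 11, an alternative chosen after seeing the data, 5 peaks were higher and 567 lower, and 0 genes passed in the surface and matrix, lineage factor, committed, myelin and granule neuron lists. By nuclei with any count, 4 surface and matrix genes, 3 lineage factors and 2 myelin genes were higher and 5 granule neuron genes lower. Genes with a count in most nuclei of the bottom 50% could not reach 1.5-fold higher by nuclei, which limits these counts of higher genes. Against all nuclei outside the top 10%, 3 lineage factors and 3 myelin genes were higher, and in promoter windows 4 committed genes were. With 200 RNA genes listed, 77.66% of the higher and 33.51% of the lower list passed. The share of higher peaks with a word over that of all peaks, 1.23 for ACAATG, 1.27 for ACAAAG, 0.989 for CAGATG, 1.23 for CAGCTG, 0.812 for TAATTA and 1.10 for GGAATG, became 1.155, 1.21, 0.905, 1.17, 0.734 and 1.04 in peaks over 1 kb from a start, also chosen after seeing the data. In windows of 200 bases it became 0.752 for TAATTA and 1.05 for GGAATG. Across the other alternatives, without the comparison inside the clusters, Gpr17 stood 3.14- to 9.49-fold and Cspg4 1.56- to 4.14-fold higher. Zfp488 stood at 2.78- to 7.41-fold, Lims2 at 3.21- to 9.93-fold and Neu4 at 2.47- to 11.96-fold. Lhfpl3 stood at 1.63- to 4.28-fold, Nkx2-2 at 1.57- to 4.52-fold and Aqp4 at 0.126- to 0.714-fold. These ranges are wider than the counting intervals. The planned restriction to clusters with more than 50% selected nuclei gave no value, since no cluster held so many. No paired analysis was possible because there was 1 library at P5. The 2 lower myelin genes became 0 against all nuclei outside the top 10%, with the top 5% or 20%, without Sox10 or Pdgfra in the selection and inside the clusters, and the 1 higher endothelial gene, Tek, became 0 in 10 of 14 alternatives. Some values rest on few counts, such as Mag with 55 and 348, and Mog, with 0 and 2, was not compared.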
